A study of Mus musculus with 6 samples.

Results

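The 10 genes described here encode mitophagy receptors and mitochondrial or secreted proteins known from other work to respond to hypoxia inducible factor (HIF), and they were chosen by name from 23792 gene rows. Each of the 10 symbols matched 1 row. RNA was sequenced from the heart ventricles of male C57BL/6-FVB mice, 6 to 8 weeks old, all of which carried 2 transgenes, a tetracycline transactivator under the αMHC promoter and HIF-PPN, a HIF1α with 3 substituted residues that stay unhydroxylated so that the protein is stable in normal oxygen. The 3 control mice remained on doxycycline, which keeps HIF-PPN off, and the 3 HIF-PPN mice had been without doxycycline for 3 days. The αMHC promoter limits the transgene to cardiomyocytes, whereas the RNA came from whole ventricles. Doxycycline, known as an inhibitor of mitochondrial translation, was present in 1 group alone, so its withdrawal and the expression of HIF-PPN cannot be told apart. The deposited values are FPKM (fragments counted per length of exon and scaled to the number of mapped fragments), 1 value per gene and group, in which the 3 mice of a group were already merged. No spread between mice, read count or depth comes with them, so no test was made, and every comparison below is a difference between 2 merged values without a replicate check.

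Mitophagy is the selective delivery of mitochondria to autophagosomes. Bnip3, Bnip3l (also called Nix) and Fundc1 encode receptors of the outer mitochondrial membrane that bind LC3 and related proteins on the growing autophagosome, and hypoxia is a classic trigger of this route. Low oxygen is also known to change the composition of the respiratory chain, through exchange of subunit isoforms and through small inner membrane proteins of the HIG1 family that attach to cytochrome c oxidase.

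Bnip3 and the HIG1 family gene Higd1a stood at more than 2-fold higher levels in HIF-PPN hearts than in control hearts, with log2 ratios of 1.17 and 1.16. Fam162a, which encodes a mitochondrial protein tied to hypoxic cell death, followed at 0.58, just under 1.5-fold, and Cox4i2, a cytochrome c oxidase isoform, at 0.54. Mif, Bnip3l and Lonp1 had smaller positive log2 ratios, from 0.27 to 0.37. Fundc1 and Higd2a were nearly level between the groups, and Ndufa4l2, a gene named as a HIF target in cultured cells, was lower in HIF-PPN hearts at −0.18. Thus 7 of the 10 genes had a log2 ratio above 0, as did 52.1% of the 12098 expressed genes, those with 1 FPKM or more in at least 1 group and a value above 0 in both. The median over the 10 genes was 0.33, against 0.012 over all expressed genes. At least 2-fold higher values were found for 2 of the 10 genes and for 2.11% of expressed genes, and at least 2-fold lower values for 0 of 10 and for 1.09%. At 1.5-fold the numbers were again 2 and 0 of 10, and 5.42% and 4.0% of expressed genes. All 10 genes had at least 1 FPKM in both groups, so none entered the comparison through 1 group alone.

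**Figure D1:**
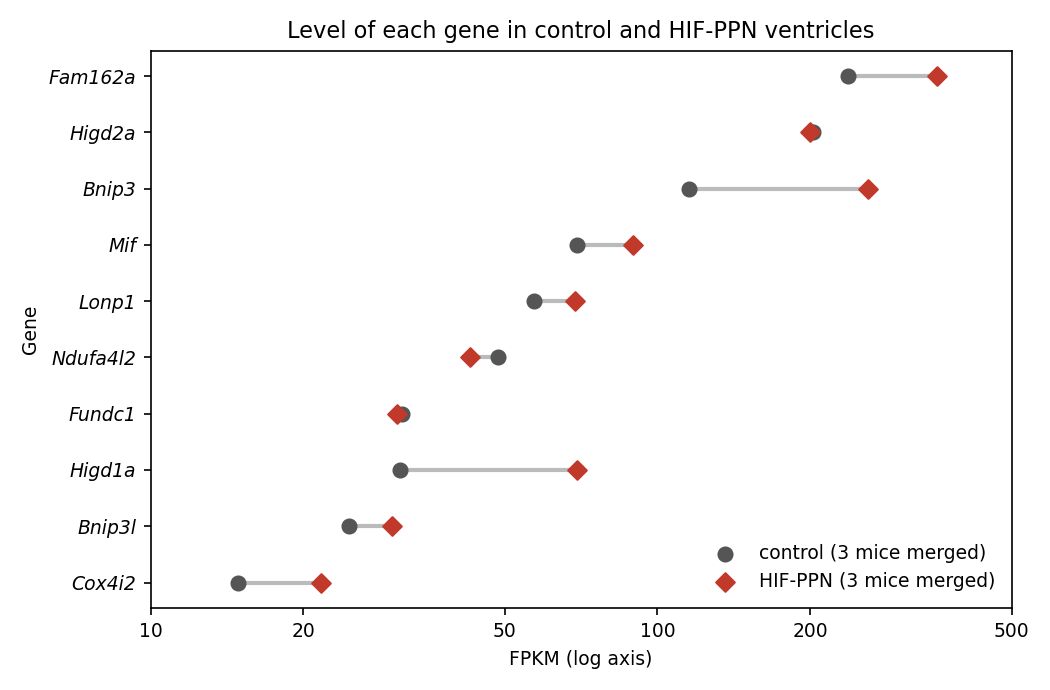
FPKM of each of the 10 genes (log axis) in control ventricles (grey circles) and HIF-PPN ventricles (red diamonds), each point being 1 value for 3 merged mice, so that no error bars can be drawn. The longest gaps belong to Bnip3 (115 and 259.9 FPKM) and Higd1a (31.1 and 69.3 FPKM), whereas the points of Fundc1 and Higd2a nearly coincide.

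Promoter sequences were searched for the short motif that HIF is known to bind, and sites elsewhere in the genes were not searched. HIF binds hypoxia response elements whose core is written here as ACGTG or GCGTG. Promoter windows on GRCm38.p6, from 250 bases before to 50 bases after a transcription start, were available for 7 of the 10 genes. The windows of the 3 genes with the highest log2 ratios, of Mif and of Higd2a are printed 5′ to 3′ on the strand of the gene, with every match to either core on either strand in capitals. Bnip3 lies at chr7:138909457-138909756, Higd1a at chr9:121857747-121858046, Fam162a at chr16:36071512-36071811 and Mif at chr10:75860228-75860527, all on the minus strand, and Higd2a at chr13:54589981-54590280 on the plus strand.
Bnip3: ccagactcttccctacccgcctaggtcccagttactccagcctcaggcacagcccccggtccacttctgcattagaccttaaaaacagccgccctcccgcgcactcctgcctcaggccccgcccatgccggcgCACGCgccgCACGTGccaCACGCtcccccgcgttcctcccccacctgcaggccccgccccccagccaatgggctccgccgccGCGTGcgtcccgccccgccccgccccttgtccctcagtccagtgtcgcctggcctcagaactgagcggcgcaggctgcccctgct
Higd1a: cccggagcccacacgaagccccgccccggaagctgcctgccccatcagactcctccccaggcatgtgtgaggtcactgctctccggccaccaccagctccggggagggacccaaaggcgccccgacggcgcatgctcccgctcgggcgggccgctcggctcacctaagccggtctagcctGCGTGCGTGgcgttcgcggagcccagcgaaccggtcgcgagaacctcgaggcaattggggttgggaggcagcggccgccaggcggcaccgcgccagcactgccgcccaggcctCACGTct
Fam162a: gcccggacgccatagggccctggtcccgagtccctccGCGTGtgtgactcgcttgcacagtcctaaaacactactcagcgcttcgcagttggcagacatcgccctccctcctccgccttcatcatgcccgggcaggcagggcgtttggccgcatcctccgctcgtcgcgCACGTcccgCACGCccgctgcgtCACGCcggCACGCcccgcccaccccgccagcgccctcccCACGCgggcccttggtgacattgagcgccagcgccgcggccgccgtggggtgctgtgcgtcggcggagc
Mif: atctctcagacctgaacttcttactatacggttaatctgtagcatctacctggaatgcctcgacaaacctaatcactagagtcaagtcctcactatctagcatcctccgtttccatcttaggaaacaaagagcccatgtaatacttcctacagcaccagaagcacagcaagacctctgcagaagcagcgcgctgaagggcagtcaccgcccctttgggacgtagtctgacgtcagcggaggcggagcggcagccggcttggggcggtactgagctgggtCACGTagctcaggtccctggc
Higd2a: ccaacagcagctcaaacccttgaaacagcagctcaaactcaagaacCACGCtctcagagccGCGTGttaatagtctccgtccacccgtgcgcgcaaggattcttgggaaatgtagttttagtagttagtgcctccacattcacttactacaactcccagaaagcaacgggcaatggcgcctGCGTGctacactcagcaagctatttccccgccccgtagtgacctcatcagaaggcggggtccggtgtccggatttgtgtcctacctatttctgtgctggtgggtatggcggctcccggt
The Bnip3 window held 5 matches, 2 of ACGTG and 3 of GCGTG. The 2 matches of ACGTG overlap, being both strands of the palindrome from −108 to −103, counted from the start site. In Higd1a the 3 matches were 2 of GCGTG, overlapping by 1 base and beginning at −70, and 1 of ACGTG at 44 to 48 bases after the start. Fam162a held 6 matches, 5 of them GCGTG, and the ACGTG core lay at −81 to −77. Mif had a single ACGTG, at 30 to 34 bases after the start. Higd2a, whose level was nearly the same in both groups, held 3 matches of GCGTG and 0 of ACGTG. Lonp1, with a log2 ratio of only 0.27, held 6 matches, 4 of GCGTG and 2 of ACGTG, the latter overlapping as both strands of a palindrome from −36 to −31. Fundc1 held 0, although the Fundc1 window belongs to a start 322 bases inside the RefSeq gene. Of all 32851 promoter windows of this length, 43.8% held at least 1 match, 19.6% held ACGTG and 32.4% held GCGTG, while 8.93% held 3 or more matches and 0.694% held 6 or more. A match only describes the letters, and HIF1 binding at these windows was not measured in the data used here. Bnip3l, Cox4i2 and Ndufa4l2 had no entry in the promoter table.

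Among the mitophagy receptors, Bnip3 moved apart from the other 2. Bnip3 (chromosome 7, 138890836 to 138909506 of GRCm38) was at 115 FPKM in the controls against 259.9 FPKM under HIF-PPN, a 2.25-fold difference and the largest log2 ratio of the 10 genes. Its ratio ranked 191st from the top among 12098 expressed genes, so that 1.57% of them had a higher one. Of the 628 genes with a mean of 100 FPKM or more, 8 exceeded their control level 2-fold or more (1.27%), Bnip3 among them, and 0.796% lay below it by as much. BNIP3 is also a BCL2 family protein known to promote death of cardiomyocytes after ischemia. Bnip3l (chromosome 14, 66985240 to 67008877) was at 24.6 FPKM in the controls against 29.9 FPKM under HIF-PPN, a log2 ratio of 0.28. This receptor is best known for clearing mitochondria from maturing red cells, and its ratio was exceeded by 17.4% of expressed genes. RefSeq lists 1 pseudogene of Bnip3l, without a row of its own in the table, and reads shared with it cannot be separated here. Fundc1 (chromosome X, 17556569 to 17572297) was at 31.4 FPKM in the controls against 30.7 FPKM under HIF-PPN, a log2 ratio of −0.033. FUNDC1 is known to be regulated by phosphorylation in hypoxia, which RNA levels do not show.

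The 3 receptor genes together summed to 171 FPKM in the controls against 320.5 FPKM under HIF-PPN, a difference of 149 FPKM, of which Bnip3 alone made up 145 FPKM. Bnip3 stood 4.68 times as high as Bnip3l in control hearts and 8.69 times as high in HIF-PPN hearts. Its share of the summed FPKM of this pair was 82.4% in control and 89.7% in HIF-PPN hearts. FPKM is scaled per length, so levels of different genes can be set side by side approximately, though reads shared with other genes or pseudogenes are not corrected by it. Bnip3 was therefore the most abundant of the 3 receptor transcripts in both groups, and the gap to the others was wider in HIF-PPN hearts.

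In the HIG1 family, the 2 genes parted. HIGD1A is known as a hypoxia-induced protein of the inner membrane that binds cytochrome c oxidase, and HIGD2A as a factor in the assembly of the same complex. Higd1a (chromosome 9, 121848560 to 121858000) was at 31.1 FPKM in the controls against 69.3 FPKM under HIF-PPN, a 2.23-fold difference. Of the 5274 genes with a mean from 10 to under 100 FPKM, 31 exceeded their control level 2-fold or more (0.588%), Higd1a among them, and 0.303% lay below it by as much. Higd2a (chromosome 13, 54590231 to 54591147) was at 203 FPKM in the controls against 200.1 FPKM under HIF-PPN, a log2 ratio of −0.021. Higd2a remained the more abundant of the pair, at 6.53 times the Higd1a level in control hearts and 2.89 times in HIF-PPN hearts. The share of Higd1a in the pair was 13.3% and 25.7%. A further family member, Higd1b, known in mouse heart as a transcript of pericytes, was at 8.46 and 11.7 FPKM (log2 ratio 0.47).

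**Figure D2:**
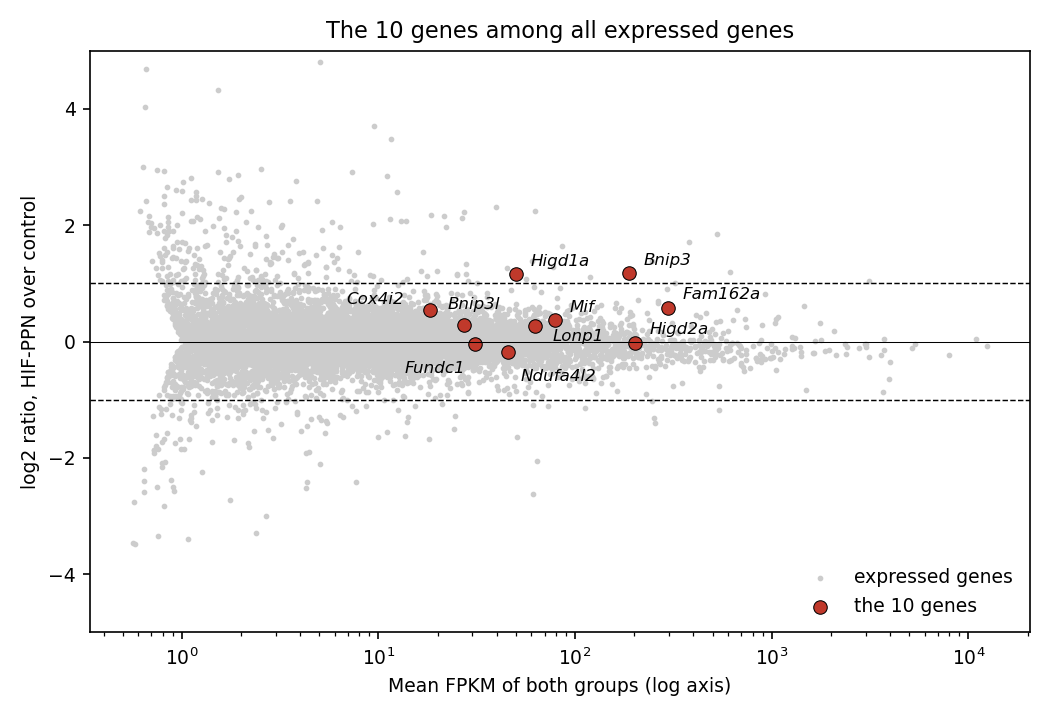
The log2 ratio of HIF-PPN over control FPKM against the mean FPKM of both groups (log axis), for 12098 expressed genes (grey points, 1 per gene) and the 10 genes (red points). Dashed lines mark 2-fold in either direction, and Bnip3 and Higd1a lie above the upper line while the other 8 lie between the lines.

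Isoforms of the respiratory chain showed no common direction. COX4I2 replaces COX4I1 in cytochrome c oxidase under hypoxia in human cell lines, where the protease LONP1 removes the other isoform. Cox4i2 was at 14.9 FPKM in the controls against 21.7 FPKM under HIF-PPN, a 1.46-fold difference, and its log2 ratio was exceeded by 6.21% of expressed genes. Cox4i1 was at 2382 FPKM in the controls against 2323 FPKM under HIF-PPN (log2 ratio −0.036). At the RNA level Cox4i2 thus made up 0.622% of the pair in control hearts and 0.926% in HIF-PPN hearts, and Cox4i1 stood 107 times as high as Cox4i2 in the latter. Lonp1 (chromosome 17, 56614298 to 56626903) was at 57.1 FPKM in the controls against 68.7 FPKM under HIF-PPN, a log2 ratio of 0.27 that 18.2% of expressed genes exceeded. Its peroxisomal relative Lonp2 was at 42.9 and 46.9 FPKM (log2 ratio 0.13).

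NDUFA4L2 is known in cultured cells as a HIF1-induced protein that lowers the activity of complex I, and its relative NDUFA4 is a subunit of cytochrome c oxidase. Ndufa4l2 was at 48.5 FPKM in the controls against 42.7 FPKM under HIF-PPN, the lowest log2 ratio of the 10 genes (−0.18), and 77.3% of expressed genes had a higher one. Ndufa4 was also lower in HIF-PPN hearts, at 2289.9 and 1941 FPKM (log2 ratio −0.24). The share of Ndufa4l2 in this pair was therefore nearly the same, 2.07% in control and 2.15% in HIF-PPN hearts. Both isoform genes share their listed position with a neighbour. Ndufa4l2 and the folate enzyme gene Shmt2 have the same interval, 127514939 to 127522444 of chromosome 10, and Cox4i2 and the BCL2 family gene Bcl2l1 the same interval, 152754173 to 152831728 of chromosome 2. In RefSeq the first pair overlaps by 32 bases and the second by 6308 bases. Shmt2 was at 28.7 and 40.3 FPKM (log2 ratio 0.49) and Bcl2l1 at 15.7 and 16.3 FPKM (log2 ratio 0.050). Both isoform genes are uncertain to that extent, since the values do not show how reads of shared bases were assigned.

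**Figure D3:**
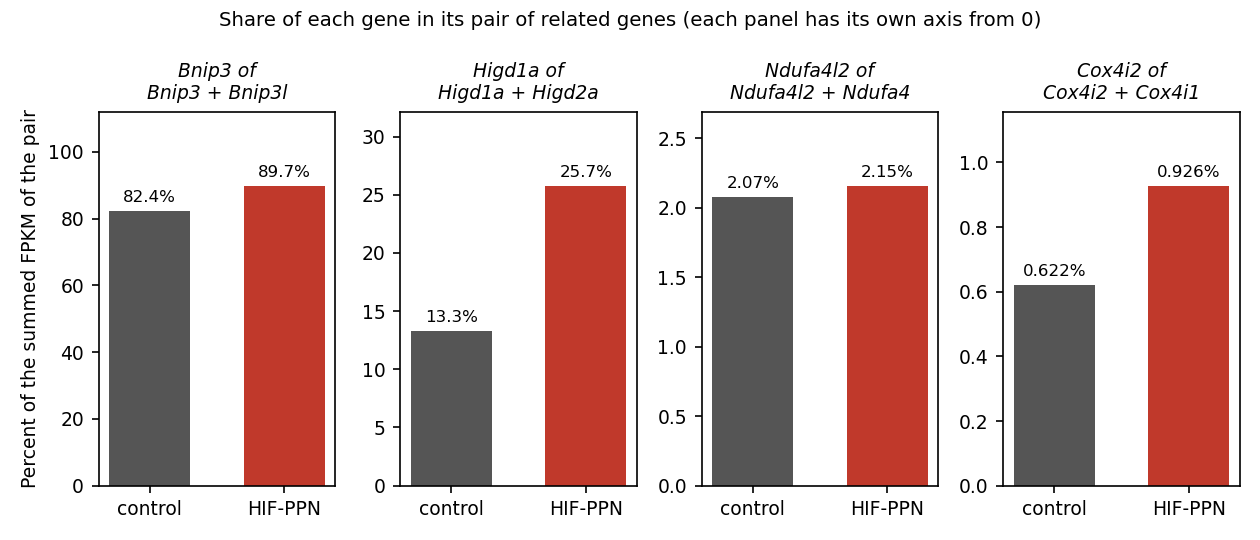
Percent of the summed FPKM of a pair that came from Bnip3 (with Bnip3l), Higd1a (with Higd2a), Ndufa4l2 (with Ndufa4) and Cox4i2 (with Cox4i1), in control (grey) and HIF-PPN (red) ventricles, 1 merged value per bar and each panel on its own axis from 0. The share of Higd1a went from 13.3% to 25.7%, and that of Ndufa4l2 differed by less than 0.1 of a percentage point.

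Fam162a and Mif complete the set. FAM162A, also called HGTD-P, is a mitochondrial protein known to promote cell death in hypoxia. Fam162a (chromosome 16, 36043844 to 36071515) was the most abundant of the 10 genes in both groups, at 238 FPKM in the controls against 356 FPKM under HIF-PPN. Its log2 ratio of 0.58 lay at the edge of 1.5-fold and was exceeded by 5.43% of expressed genes. In absolute terms the difference was 119 FPKM, so that Bnip3 and Fam162a together made up 78.3% of the summed difference over the 10 genes, whose sum was 833 FPKM in the controls against 1169 FPKM under HIF-PPN. Mif encodes a secreted cytokine, not a resident mitochondrial protein. Mif (chromosome 10, 75859353 to 75860250) was at 69.3 FPKM in the controls against 89.6 FPKM under HIF-PPN, a log2 ratio of 0.37. RefSeq lists 7 pseudogenes of Mif, none with a row of its own, which leaves the Mif value uncertain by any reads they share. The related cytokine gene Ddt was at 58.6 and 64.6 FPKM (log2 ratio 0.14). Of 5 expressed genes of MIF receptors and signalling, none differed 1.5-fold, with a median log2 ratio of 0.031. Among all expressed genes, 5.42% were higher and 4.0% lower by at least 1.5-fold. The receptor gene Cd74 was at 73.3 and 56.1 FPKM (−0.39), the chemokine receptor gene Cxcr4 at 9.94 and 8.81 FPKM (−0.17) and Ackr3 at 72.5 and 74.0 FPKM (0.031).

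In the wider mitophagy machinery no listed gene reached the 2-fold difference seen at Bnip3. Among all expressed genes, 2.11% were at least 2-fold higher and 1.09% lower, with 5.42% and 4.0% at 1.5-fold. Lists of this size would hold few genes past these folds at those shares. A log2 ratio above 0 was found for 52.1% of expressed genes. The same shares apply to the lists of the next paragraph. Of 15 expressed genes of the PINK1-Parkin pathway, which marks damaged mitochondria with ubiquitin, 7 were higher and 8 lower in HIF-PPN hearts, none by 2-fold (median log2 ratio −0.042). The kinase gene Pink1 was at 330 and 311 FPKM (−0.085), and the channel gene Vdac1 at 712 and 675 FPKM (−0.079). Park2, which encodes the ligase Parkin, had the highest ratio of the pathway at 2.14 and 3.22 FPKM (0.59). It was the only gene of the pathway at least 1.5-fold above its control level, and 1 other gene lay at least 1.5-fold below. Of 11 expressed genes of other receptors and adaptors, 7 were higher and none differed 1.5-fold (median 0.058). The autophagy adaptor gene Sqstm1 (p62) led them at 165 and 226 FPKM (0.46), followed by Optn at 26.8 and 33.1 FPKM (0.30). Gbas, also known as Nipsnap2, was the most abundant at 540.3 and 562 FPKM (0.058). FUNDC1's relative Fundc2 was at 122 and 101 FPKM (−0.27).

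Autophagosome formation, which receptor-bound mitochondria depend on, was covered by 28 expressed genes. Of these, 21 had a higher value in HIF-PPN hearts, but all 28 lay within 1.5-fold, between −0.30 and 0.32, with a median of 0.076. The LC3 gene Map1lc3a was at 453 and 449 FPKM (−0.015) and the lysosomal gene Lamp1 at 301 and 305 FPKM (0.020). The outermost were Lamp2 at 160.4 and 130.4 FPKM (−0.30) and Pik3r4, a subunit of the kinase that starts the autophagosome membrane, at 6.17 and 7.71 FPKM (0.32). Of 12 genes of mitochondrial fission and fusion, 9 were lower, none past 1.5-fold (median −0.10). The largest differences were those of the fission gene Mtfp1 at 132 and 89.1 FPKM (−0.57) and of the fusion gene Mfn2 at 293 and 216 FPKM (−0.44), and the fusion gene Mfn1 was at 128 and 103 FPKM (−0.31). Of 15 expressed BCL2 family genes, to which Bnip3 is related, 9 were higher and none differed 2-fold (median 0.073). The death-promoting genes Bid at 0.760 and 1.29 FPKM (0.76) and Bbc3 at 1.46 and 0.868 FPKM (−0.75) were near the limit of expression, whereas Mcl1 was at 101 and 93.8 FPKM (−0.11) and Bcl2l2 at 38.2 and 40.2 FPKM (0.073).

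**Figure D4:**
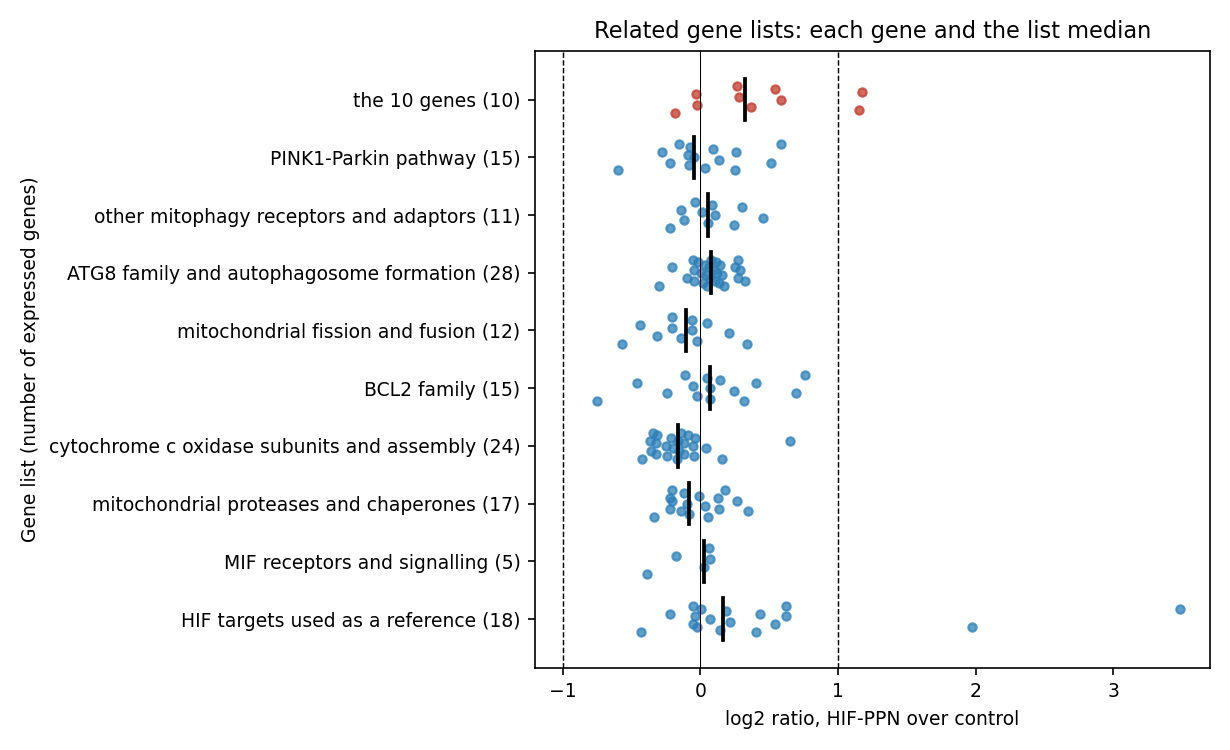
The log2 ratio of HIF-PPN over control FPKM for each expressed gene of the related lists (blue points) and of the 10 genes (red points), with the list median as a black bar and the number of expressed genes in brackets, points being spread vertically only to separate them. Dashed lines mark 2-fold, and the HIF targets used as a reference alone among the related lists have points past them, Car9 at 3.49 and Mgarp at 1.98.

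Genes that act with the isoform genes and with LONP1 are given next, beside 52.1% of expressed genes with a log2 ratio above 0. The shares of expressed genes past 2-fold and 1.5-fold are those given above. Of 24 subunits and assembly factors of cytochrome c oxidase, 21 were lower in HIF-PPN hearts (median −0.16), and none differed 2-fold in either direction. Cox7a1 was at 3684 and 3785 FPKM (0.039), and Cox6a2 at 3031 and 2929.8 FPKM (−0.049). Cox19, a copper-handling assembly factor, was at 39.2 and 61.4 FPKM (0.65) and was the only one past 1.5-fold, and Cox7a2l was lowest at 189 and 141 FPKM (−0.43). Of 17 mitochondrial proteases and chaperones, Lonp1 included, 10 were lower and none differed 1.5-fold (median −0.079). Lonp1 had the second highest ratio of this list, after the processing peptidase gene Pmpcb at 116 and 147 FPKM (0.35). The chaperone genes Hspa9 (317 and 272 FPKM, −0.22) and Dnaja3 (82.6 and 65.6 FPKM, −0.33) lay on the lower side.

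Other HIF targets, listed as a reference, also differed widely among themselves. Of 18, 12 had a higher value in HIF-PPN hearts, 2 by at least 2-fold and 4 by at least 1.5-fold, with a median log2 ratio of 0.16. Over the 12098 expressed genes, 52.1% had a log2 ratio above 0 and the median was 0.012. Values in HIF-PPN hearts exceeded the control level 2-fold or more for 2.11% of them, and 1.5-fold or more for 5.42%. The shares of expressed genes given here and above also apply to the marker lists of the next paragraph. Car9, a carbonic anhydrase, was at 1.89 and 21.2 FPKM (3.49), and Mgarp, a mitochondrial protein known for a role in mitochondrial transport in neurons, at 2.60 and 10.2 FPKM (1.98). The prolyl hydroxylase gene Egln3 was at a log2 ratio of 0.62, the lactate dehydrogenase gene Ldha at 0.54 and the mitochondrial kinase gene Pdk1 at 0.41. In contrast, Egln1 was at −0.023, Kdm3a at 0.0038, Vegfa at −0.22 and Ddit4 at −0.43. Bnip3 and Higd1a would thus rank just below Mgarp in this list. The row of the mouse gene Hif1a was at 35.3 and 25.9 FPKM (log2 ratio −0.45). The authors' methods give no species for the HIF1α sequence of the mouse transgene. Whether transgene reads were counted in this row was not tested.

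Markers of cell types differed by 2-fold or more between the groups in 1 list, that of adipocytes. All 8 cardiomyocyte markers had at least 104 FPKM in control hearts, and 7 were lower in HIF-PPN hearts (median −0.12), among them Ryr2 (−0.74), Ttn (−0.33), Actc1 (−0.22) and Myl2 (−0.082). Of 7 expressed adipocyte markers, all were higher and 6 by at least 2-fold (median 2.08), although Plin1 and Retn reached 1 FPKM in HIF-PPN hearts alone and the 2-fold count is 4 where 1 FPKM is required in both groups, with Ucp1 at 1.72 and 12.9 FPKM, Plin1 at 0.600 and 3.29 FPKM, Cfd at 4.98 and 21.0 FPKM and Fabp4, also found in endothelium, at 916 and 1233 FPKM. The summed level of these 7 was 927 FPKM in the controls against 1285 FPKM under HIF-PPN, nearly all of it from Fabp4 in both groups. The 6 markers past 2-fold were low in the controls, from 0.379 FPKM (Retn) to 4.98 FPKM (Cfd). The part of the adipocyte markers in the values of the 10 genes was not tested. Ndufa4l2 and Cox4i2, like Higd1b, are known in the mouse heart as pericyte transcripts. Of 9 pericyte markers 6 were lower (median −0.12), with Rgs5 at 283 and 210.5 FPKM (−0.42), Abcc9 at 91.4 and 63.8 FPKM (−0.52) and Mcam at 23.6 and 37.6 FPKM (0.67), and their sum was 490.0 FPKM in the controls against 399.9 FPKM under HIF-PPN. Their part in the ratios of Ndufa4l2 and Cox4i2 was not tested, and in such bulk RNA fewer cells of a type and less RNA per cell cannot be told apart. Median log2 ratios were 0.072 over 6 smooth muscle markers, which include Acta2 (−0.87), Cnn1 (0.70) and Tagln (0.15), −0.068 over 7 endothelial markers with Vwf (−0.65), Tie1 (−0.42), Cdh5 (−0.068) and Pecam1 (0.099), and 0.0064 over 7 fibroblast markers with Tcf21 (−0.41), Postn (0.35), Dcn (−0.22) and Lum (0.12). Over 8 expressed macrophage and leukocyte markers, 6 of them lower, the median was −0.14, with Cd79a (0.85), Emr1 (−0.66), Csf1r (−0.55) and Lyz2 (−0.15), and Alas2 (−0.18) was the only erythroid marker that reached 1 FPKM. None of the marker genes with a row was listed at 0 in both groups.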

How the data were processed

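Poly A RNA from 6 ventricle samples, 3 control and 3 HIF-PPN, was sequenced in paired ends. Per the labels and methods, the authors mapped reads with TopHat and Bowtie and quantified them with Cufflinks and Cuffdiff, naming an older NCBI build first and mm10 later. The deposited table gives FPKM by the authors, 1 value per gene and group with the mice already merged. A column of the authors' own log2 fold changes was not used. Of 22137 gene names found in RefSeq for GRCm38.p6, 98.7% of positions overlapped the gene of that name, and starts are printed 1-based. Depth per sample is unknown.

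The log2 ratio of HIF-PPN over control FPKM was computed without a pseudocount. Genes counted as expressed at 1 FPKM in at least 1 group, and 2-fold (1.5-fold as alternative) set the counts. No test, interval or p-value was possible. Alternatives were an added 0.1 or 1 FPKM (pseudocount), median centring, upper quartile scaling, the fold and the filter. The 202 rows that name several genes were not assigned to members or lists. Of the symbols of the gene lists, 6 had no row of their own. Named genes were the 10 members, their relatives and, in each list, the 2 highest in mean FPKM and the 2 with the largest absolute log2 ratio, with any of the HIF reference list. One gene that this rule names is not reported here. Members and lists were chosen with earlier results of these data known. Counting by fold was tested on simulated data with planted differences, which checks the counting and says nothing on the reliability of the counts reported. A planned comparison of protein sequences was not run. Python 3.11.15, numpy 2.4.6, pandas 2.3.3 and matplotlib 3.10.9 were used.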

Additional observations from a re-analysis of the deposited data

How the results depend on the processing

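Each of the 10 genes kept its log2 ratio within 0.1 under the 4 other settings tried for it, an added 0.1 FPKM, an added 1 FPKM, centring on the median ratio (a shift of 0.010) and scaling by the upper quartile. These settings could hardly have moved a ratio further. All 10 genes had at least 14.9 FPKM in both groups, and centring and scaling shift every ratio alike. The counts past 2-fold, 2 genes on the higher side and 0 on the lower, were the same at 1.5-fold, with a pseudocount of 1 FPKM and after centring. Changing or dropping the filter could not alter these counts, because all 10 genes had at least 1 FPKM in both groups. Fam162a misses 1.5-fold narrowly, at 1.499-fold. Among the gene lists and pair shares, the median of the adipocyte markers went from 2.08 to 1.42 with a pseudocount of 1 FPKM, and their count past 2-fold from 6 to 5 with that pseudocount and to 4 with 1 FPKM required in both groups.

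No paired analysis was possible because the deposited values merge the 3 mice of each group, and for the same reason leaving out each mouse in turn was not run. A difference between 2 merged values carries no error, and read depth behind each value is unknown. No log2 ratio given here can therefore be told from spread between mice, neither the large ones of Bnip3 and Higd1a nor the small ones of Bnip3l, Lonp1 and Mif. RNA levels say nothing on the phosphorylation or abundance of the proteins.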
